A study of Homo sapiens with 6 samples.

Results

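The genes described here encode receptors of the ERBB family, the EGF-like ligands that bind them and ERRFI1, an intracellular inhibitor of the receptors. The 10 genes were taken by name: the receptors EGFR, ERBB2 and ERBB3, the ligands AREG, EREG, HBEGF, TGFA, BTC and NRG1, and ERRFI1. All 10 had a row among the 40295 Ensembl genes of the deposited table, and all 10 passed the filter on low counts that left 16580 genes to be tested. The table holds 6 RNA-seq libraries from HDQ-P1, an established human mammary carcinoma line, 3 of them from cells kept for 48 h with Y-320 at a dose of 1 μM and 3 from cells left untreated. Y-320 is a phenylpyrazoleanilide studied as an enhancer of G418, an aminoglycoside that lets ribosomes read through premature stop codons, and the labels of these libraries name no G418. All libraries come from the same line, and the untreated cells are not stated to have received the solvent of the compound. Nothing states whether the libraries of a group came from separate cultures, so the p-values measure the spread between these libraries, which may be technical.

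ERBB receptors are tyrosine kinases at the cell surface that form pairs when a ligand binds and then signal through RAS and ERK and through PI3K. EGFR binds amphiregulin (AREG), epiregulin (EREG), heparin-binding EGF-like growth factor (HBEGF), TGF-alpha (TGFA) and betacellulin (BTC), ERBB3 binds neuregulin 1 (NRG1), and ERBB2 has no known ligand and acts as a partner of the others. The ligands are made as membrane-bound precursors that metalloproteases release, and the receptors are restrained by inhibitors such as ERRFI1, whose transcript is itself induced by growth factor signalling in epithelial cells.

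The libraries held 21045401 to 22740535 estimated counts each, and the limit that a count of 0 allows is 3 counts, which is 0.132 to 0.143 CPM (the count scaled to a fixed library total) and covers counting error only. Libraries of 1 group had a chi-square of 1.99 to 2.96 per degree of freedom against each other, more than counting error alone would give. This cannot tell separate cultures from separate libraries of the same culture or RNA. All 12 genes of a general list of epithelial markers had a mean above 1 CPM. Of these 4 were higher and 8 lower with Y-320, and their summed level was 8946 to 9350 CPM untreated and 5828 to 5929 CPM with Y-320. Of 14 markers of fibroblasts, leukocytes, endothelium and muscle, CD3E was at or under 3 counts in every library, and 12 were tested, with 2 higher and 4 lower. Their sum was 259 to 298 CPM untreated and 194 to 221 CPM with Y-320, and the part of these shifts in the results below was not tested. In bulk RNA, fewer cells of a kind and less RNA per cell cannot be told apart.

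With Y-320, 6 of the 10 genes were higher and 2 were lower at an adjusted p under 0.05 from the quasi-likelihood test of edgeR. This compares with 26.2% of all genes tested that were higher and 25.4% that were lower, or 51.5% in either direction. The ligand HBEGF rose 3.91-fold and the inhibitor ERRFI1 rose 2.71-fold, while the ERBB3 ligand NRG1 fell by 3.00 on the log2 scale, to 0.125 times its untreated level. TGFA and AREG rose by 1.45-fold and 1.59-fold, EGFR rose by 1.22-fold and ERBB2 fell to 0.806 times its untreated level. EREG passed the threshold narrowly, and ERBB3 and BTC did not pass it. A change of at least 1 log2 unit past the threshold was found for 2.43% of all genes upward and 2.59% downward, and among the 10 genes for HBEGF and ERRFI1 upward and NRG1 downward. The groups did not overlap for 8 of the 10 genes, 5 of them higher and 3 lower, against 59.2% of all genes tested (29.8% higher and 29.4% lower). In a comparison of 3 libraries with 3, the smallest p that an exact permutation test can give is 0.1 (two-sided), and these 8 genes reached it.

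**Figure D1:**
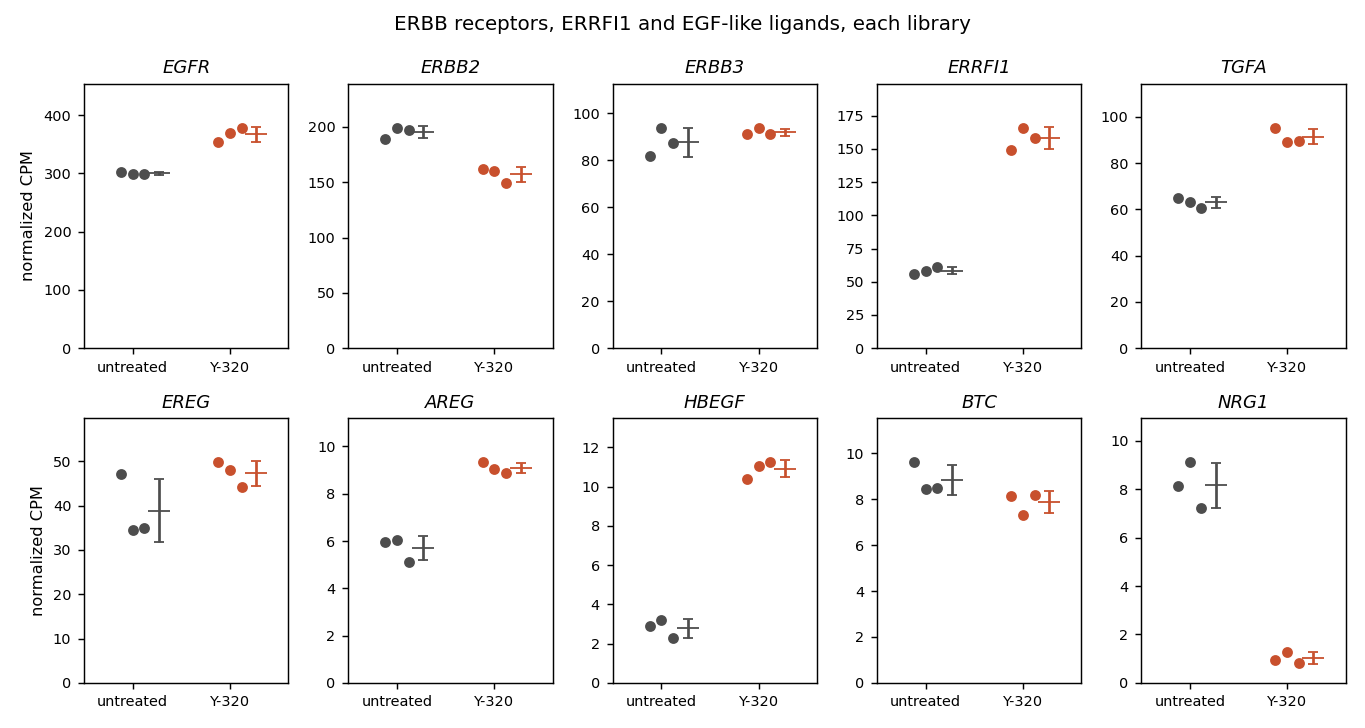
Normalized CPM (linear axes from 0) of the 10 genes in each of the 3 untreated (grey) and 3 Y-320 (orange) libraries. Points are libraries, and the bars beside them are the mean and SD of 3. HBEGF and ERRFI1 lie far above their untreated libraries with Y-320 and NRG1 far below, while the libraries of EREG and ERBB3 overlap between the groups.

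EGFR (ENSG00000146648, chromosome 7 from 55019017 to 55211628 on the plus strand of hg38) was the most abundant receptor in counts. Its normalized CPM, scaled by the TMM method, was 303, 298 and 299 in the untreated libraries, in the order of their replicate numbers, and 353, 370 and 379 after Y-320. Every treated library was above every untreated one, and the untreated libraries lay within a few CPM of each other. The log2 fold change was 0.29 ± 0.028 (SE), at an adjusted p of 1.15e-05 by edgeR, and it stayed between 0.27 and 0.32 with each library left out in turn. By size of change EGFR ranked 2599 of the 4336 higher genes. The antisense gene EGFR-AS1 holds 0.980% of its 31-base words.

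ERBB2 (ENSG00000141736, chromosome 17 from 39687914 to 39730426, plus strand) went the other way. It was at 189, 199 and 197 normalized CPM in the untreated libraries and at 162, 160 and 150 with Y-320. All treated libraries were lower than all untreated libraries, and the log2 fold change was -0.31 ± 0.036 (SE), at an adjusted p of 3.76e-05 by edgeR. Other genes of the annotation together hold 8.80% of the 31-base words of ERBB2 transcripts, and the neighbour MIEN1 alone holds 4.81%, so a small part of its reads could be divided with other genes.

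ERBB3 (ENSG00000065361, chromosome 12 from 56076799 to 56103505, plus strand), the receptor that binds neuregulins and needs a partner for most of its kinase signalling, was at 81.8, 93.9 and 87.2 normalized CPM untreated and 91.2, 93.7 and 91.1 with Y-320. The untreated libraries spread around the treated ones. Its log2 fold change was 0.07 (95% interval -0.03 to 0.17, edgeR adjusted p = 0.224). Without untreated replicate 2, the library with the highest ERBB3 level, the value was 0.12 and passed the threshold with an edgeR adjusted p of 0.0295.

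ERRFI1 (ENSG00000116285, chromosome 1 from 8004404 to 8026309, minus strand) encodes MIG6, which binds the kinase domain of activated ERBB receptors and promotes their removal from the surface. It had 55.5, 58.3 and 61.0 normalized CPM in untreated cells and 149, 166 and 158 with Y-320. The groups were far apart relative to their spread, with means of 58.3 ± 2.75 and 158 ± 8.32 (SD, n = 3 each). The log2 fold change was 1.44 ± 0.046 (SE), at an adjusted p of 4.62e-09 by edgeR, and lay at 1.40 to 1.48 when libraries were left out singly. It ranked 186 among the 4336 higher genes. The gene ENSG00000284747 holds 2.95% of its 31-base words.

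HBEGF (ENSG00000113070, chromosome 5 from 140332843 to 140346603, minus strand) encodes a ligand of EGFR and ERBB4 that also binds heparan sulfate. Its counts were 64, 67 and 50 without the compound and 238, 242 and 249 with it. In normalized CPM this was 2.90, 3.21 and 2.27 against 10.4, 11.1 and 11.2. The lowest treated library was more than 3 times the highest untreated one. The log2 fold change was 1.97 ± 0.12 (SE), at an adjusted p of 4.09e-07 by edgeR, from 1.83 to 2.08 with each library left out, and HBEGF ranked 71 among the higher genes. None of its 31-base words occurs in another gene.

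TGFA (ENSG00000163235, chromosome 2 from 70447284 to 70554193, minus strand), an EGFR ligand of epithelial cells, was at 65.1, 63.2 and 60.7 normalized CPM untreated and 95.3, 89.3 and 89.7 with Y-320. All treated libraries were above all untreated ones, and the log2 fold change was 0.54 ± 0.039 (SE), at an adjusted p of 1.22e-06 by edgeR. In CPM this was the largest gain among the ligands, and TGFA was the ligand with the most counts in every library.

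AREG (ENSG00000109321, chromosome 4 from 74445136 to 74455005, plus strand), an EGFR ligand that acts in the growth of mammary ducts, was at 5.98, 6.04 and 5.12 normalized CPM untreated and 9.32, 9.06 and 8.89 with Y-320. The groups did not overlap, and the log2 fold change was 0.67 ± 0.094 (SE), at an adjusted p of 1.62e-04 by edgeR. A near-identical copy of AREG is known from older annotations. The table held 0 rows for it, 0 rows with the same values as AREG, and 0% of the 31-base words of AREG occur in another gene of GENCODE 44, so no reads had to be divided between copies under that annotation.

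EREG (ENSG00000124882, chromosome 4 from 74365145 to 74388749, plus strand), a ligand of EGFR and ERBB4, was at 47.2, 34.6 and 34.9 normalized CPM untreated and 49.8, 48.0 and 44.2 with Y-320. Untreated replicate 1 lay among the treated libraries, and the other untreated libraries lay below them. The log2 fold change was 0.28 ± 0.10 (SE), at an adjusted p of 0.0426 by edgeR, and its call depended on which library was left out and on the test. Without untreated replicate 1 it was 0.44 with an edgeR adjusted p of 1.77e-04, and without untreated replicate 2 or 3 or Y-320 replicate 1 or 2 it was 0.20, 0.21, 0.24 and 0.27 and did not pass. DESeq2 on all libraries gave an adjusted p of 0.154. Of the 31-base words of EREG, 5.81% occur in other genes.

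BTC (ENSG00000174808, chromosome 4 from 74744759 to 74794523, minus strand), a ligand of EGFR and ERBB4, was at 9.60, 8.44 and 8.47 normalized CPM untreated and 8.14, 7.32 and 8.17 with Y-320. The treated libraries were all lower, but the gap was smaller than the spread within the groups. The log2 fold change of -0.17 (95% interval -0.37 to 0.04, edgeR adjusted p = 0.154) did not pass the threshold, nor did it in any of the alternative fits.

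NRG1 (ENSG00000157168, chromosome 8 from 31639222 to 32855666, plus strand), the neuregulin that binds ERBB3 and ERBB4, stood at counts of 180, 190 and 160 without the compound and of 22, 28 and 18 after it. In normalized CPM it was at 8.15, 9.11 and 7.25 and then at 0.963, 1.28 and 0.812. All treated libraries were far below all untreated ones while still above the limit of 3 counts. The log2 fold change was -3.00 ± 0.17 (SE), at an adjusted p of 2.26e-07 by edgeR, between -3.19 and -2.86 with each library left out. By size of change NRG1 ranked 14 among the 4210 lower genes, the highest rank of the 10 genes in either direction. NRG1 has 35 annotated transcripts, and the counts are per gene, so which isoforms were lower was not analysed here.

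**Figure D2:**
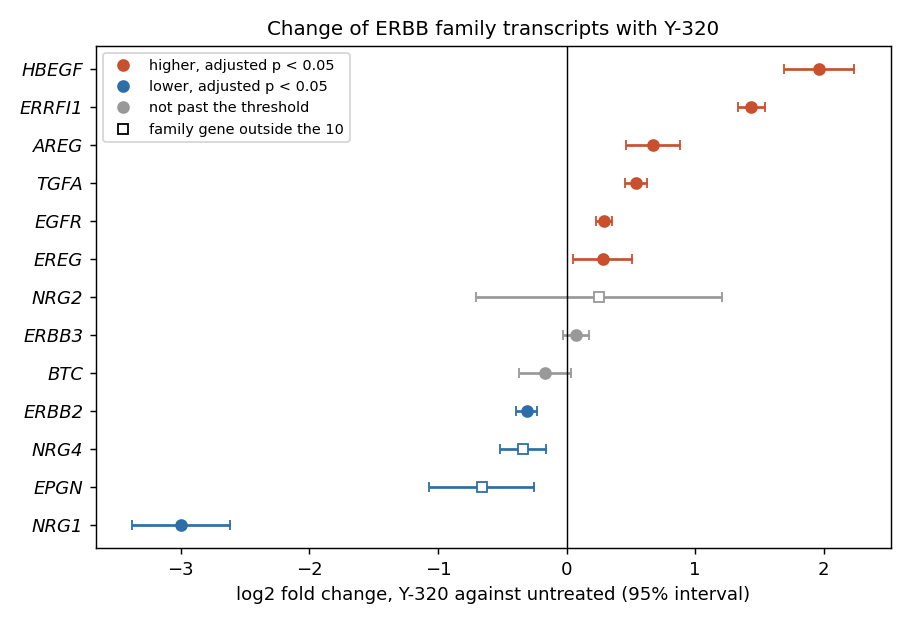
Log2 fold change of Y-320 against untreated cells with its 95% interval (edgeR, 3 libraries each) for the 10 genes (circles) and the 3 other family genes that could be tested (squares). NRG1 at -3.00 and HBEGF at 1.97 lie at the ends, EGFR and ERBB2 lie on opposite sides of 0, and the intervals of ERBB3, BTC and NRG2 include 0.

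Sequences upstream of the gene start are shown for the most raised ligand and the raised inhibitor, HBEGF and ERRFI1, and for the neighbouring ligand genes AREG and EREG. They are the 250 bases before the RefSeq start on GRCh38.p14, given 5′ to 3′ on the strand of the gene, at chr5:140346604-140346853 (minus strand), chr1:8026310-8026559 (minus strand), chr4:74444886-74445135 (plus strand) and chr4:74364895-74365144 (plus strand). Capitals mark matches, on either strand, to 7 motifs: AP-1 (TGANTCA), the cAMP response element or CRE (TGACGTCA), the C/EBP-ATF composite (TGATGCAA), the hypoxia response core (ACGTG), NF-kB, the GC box (GGGCGG) and the TATA box (TATAAA).
HBEGF: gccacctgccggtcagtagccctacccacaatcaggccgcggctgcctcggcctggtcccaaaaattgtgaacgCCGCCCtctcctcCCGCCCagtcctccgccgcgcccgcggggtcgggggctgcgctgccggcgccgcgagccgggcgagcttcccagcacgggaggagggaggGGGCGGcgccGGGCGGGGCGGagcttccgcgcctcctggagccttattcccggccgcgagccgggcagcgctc
ERRFI1: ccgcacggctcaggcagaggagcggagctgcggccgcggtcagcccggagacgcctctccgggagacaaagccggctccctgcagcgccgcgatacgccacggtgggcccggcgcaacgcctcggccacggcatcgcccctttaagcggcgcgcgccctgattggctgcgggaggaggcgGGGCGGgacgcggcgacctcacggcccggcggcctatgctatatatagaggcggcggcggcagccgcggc
AREG: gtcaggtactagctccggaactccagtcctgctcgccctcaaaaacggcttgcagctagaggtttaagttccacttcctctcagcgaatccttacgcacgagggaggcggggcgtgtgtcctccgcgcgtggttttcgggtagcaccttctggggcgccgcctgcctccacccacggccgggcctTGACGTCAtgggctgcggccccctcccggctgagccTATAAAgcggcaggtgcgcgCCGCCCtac
EREG: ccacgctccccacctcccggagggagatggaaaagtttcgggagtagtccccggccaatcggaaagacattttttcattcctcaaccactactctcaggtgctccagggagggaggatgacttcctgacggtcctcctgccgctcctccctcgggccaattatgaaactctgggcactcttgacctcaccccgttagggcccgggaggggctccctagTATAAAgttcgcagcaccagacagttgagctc

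The AREG window held the palindromic CRE, starting 65 bases before the gene start, which 1.65% of the 35116 promoter windows of this length hold. It also held a TATA box 29 bases before the start, and EREG held one 32 bases before the start, a motif that 10.7% of all windows hold. AREG had 1 GC box as well. Of the 7 motifs, HBEGF and ERRFI1 matched only the GC box, with 5 in HBEGF (2 of which share bases) and 1 in ERRFI1. This motif was found in 42.6% of windows. The TATA letters searched were TATAAA alone, so the run tatatata in the ERRFI1 window was not counted. None of these windows had a match to the AP-1, C/EBP-ATF, hypoxia or NF-kB letters, which 6.57%, 0.772%, 18.5% and 0.527% of all windows hold. Among the other members, ERBB2 had an AP-1 match and EGFR and TGFA had 2 and 3 GC boxes, while BTC had none of the 7. A match is a run of letters and not a measured binding site. RefSeq windows were matched for 8 of the 10 genes, without ERBB3 and NRG1.

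Levels can be compared between genes only per length of transcript, and for this the normalized CPM was divided by the length of the canonical transcript in kilobases. In untreated cells ERBB2 stood first among the receptors at 42.9 ± 1.15 CPM per kb, followed by EGFR at 30.3 ± 0.227 and ERBB3 at 15.6 ± 1.08 (SD, n = 3 each). With Y-320, EGFR stood first at 37.1 ± 1.30, ERBB2 was at 34.5 ± 1.51 and ERBB3 at 16.4 ± 0.264. The places of EGFR and ERBB2 were thus exchanged, and in neither group did the libraries of neighbouring receptors overlap. In the treated libraries, however, the highest ERBB2 value, 35.62, lay just under the lowest EGFR value, 35.66. The summed level of these receptors was 88.7 ± 1.97 CPM per kb untreated and 88.0 ± 1.07 with Y-320. The share of EGFR in it went from 34.1% ± 1.01 to 42.1% ± 1.55, and that of ERBB2 from 48.3% ± 0.333 to 39.2% ± 1.55. With the union of all exons as the length, ERBB2 and EGFR were nearly level in untreated cells, at 18.9 and 18.8 CPM per kb. Their untreated shares of the sum were then 41.8% ± 0.385 and 41.6% ± 1.11. With this length the untreated order of ERBB2 and EGFR was thus within the spread. The pair of the 10 genes that changed places with the length was ERBB3 and TGFA, at 15.6 and 15.3 in untreated cells per canonical transcript, at 7.48 and 12.8 with the exon union and at 14.0 and 15.3 with the longest transcript. The fold change of each gene does not depend on the length used.

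Among the ligands the untreated order per kb was TGFA at 15.3 ± 0.545, EREG at 8.43 ± 1.55, AREG at 4.63 ± 0.418, BTC at 3.33 ± 0.250, HBEGF at 1.18 ± 0.205 and NRG1 at 0.682 ± 0.0777 (SD, n = 3 each), and no neighbours in this order overlapped between libraries. With Y-320 the first places were the same, with TGFA at 22.2 ± 0.814, EREG at 10.3 ± 0.615 and AREG at 7.37 ± 0.176. HBEGF at 4.63 ± 0.184 moved above BTC at 2.97 ± 0.181, and NRG1 was last at 0.0850 ± 0.0200. As a share of the summed level of the 6 ligands, HBEGF went from 3.53% ± 0.538 to 9.75% ± 0.658 and NRG1 from 2.04% ± 0.232 to 0.179% ± 0.0429. TGFA held 45.7% ± 1.99 and 46.7% ± 0.530 of it, a difference within the spread. The sum itself was 33.6 ± 2.64 CPM per kb untreated and 47.5 ± 1.36 with Y-320, and these are descriptions that were not tested. The level of ERRFI1 per kb went from 18.8 ± 0.886 to 51.0 ± 2.69, from between ERBB3 and EGFR to above all 3 receptors.

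**Figure D3:**
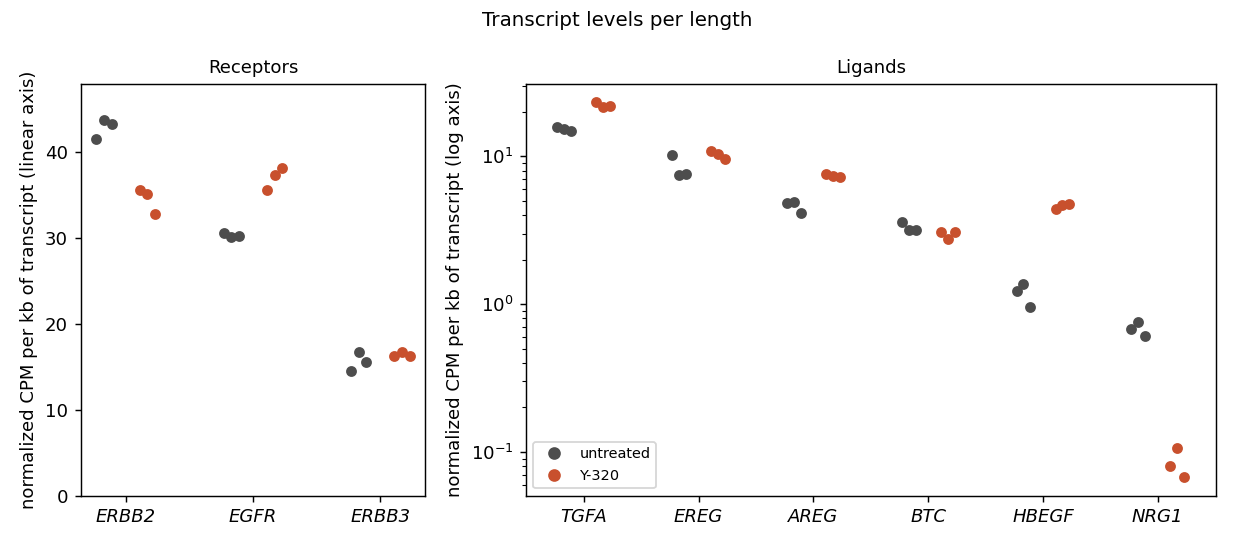
Normalized CPM per kb of canonical transcript for the receptors (left, linear axis from 0) and the ligands (right, log axis) in each untreated (grey) and Y-320 (orange) library. EGFR and ERBB2 exchange places between the groups, HBEGF rises from below BTC to above it, and NRG1 drops from 0.682 to 0.0850.

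The other receptor and ligand genes of the family had low counts or smaller changes than HBEGF and NRG1. ERBB4, the remaining receptor, had 1 to 3 counts in each library, and NRG3 had at most 1.03 estimated counts. EGF itself had counts of 9, 3 and 9 without Y-320 and of 5, 4 and 8 with it. These 3 genes did not pass the filter, and in the fit without it none passed the threshold (edgeR adjusted p of 0.889, 0.773 and 0.710). For NRG2 the counts were 10, 8 and 13 against 20, 12 and 6 after treatment, and its log2 fold change of 0.25 (edgeR adjusted p = 0.662) became -0.21 without Y-320 replicate 1. NRG4, a neuregulin that binds ERBB4, had a log2 fold change of -0.34 ± 0.082 (SE), at an adjusted p of 0.00554 by edgeR, but 35.4% of its 31-base words occur in FBXO22, so its reads are uncertain. EPGN, which encodes the EGFR ligand epigen, was at 2.76, 3.50 and 3.04 normalized CPM untreated and 2.06, 2.24 and 1.58 with Y-320. It fell by 0.66 on the log2 scale ± 0.18 (SE), at an adjusted p of 0.0121 by edgeR, and without untreated replicate 2 it was at -0.56 and did not pass (edgeR adjusted p = 0.0515).

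EPGN, EREG, AREG and BTC lie next to each other within 486 kb of chromosome 4, and their log2 fold changes were of both signs. Of these only AREG kept its call in all 15 alternative fits. BTC did not pass the threshold, and the calls of EPGN and EREG depended on which library was left out. From the start of the cluster, EPGN fell by 0.66, EREG had a log2 fold change of 0.28, AREG rose by 0.67 and BTC had -0.17. EPGN, EREG and AREG are on the plus strand and BTC, 290 kb beyond AREG, is on the minus strand. The ligands outside the cluster, HBEGF on chromosome 5, TGFA on chromosome 2 and NRG1 on chromosome 8, included the largest changes in either direction.

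Genes that act before and after the receptors were read from the same fit in lists. Of 14 genes of ligand shedding and surface traffic, all were tested, 5 were higher and 5 were lower, where 26.2% and 25.4% of all genes tested were. The median log2 fold change of the list was -0.02 against 0.00097 over all genes tested. ADAM17, the main protease that releases AREG, EREG, HBEGF and TGFA, went from 129 to 187 normalized CPM, which made a log2 fold change of 0.54 ± 0.030 (SE), at an adjusted p of 2.16e-07 by edgeR. ADAM12 rose by 0.71 on the same scale. ADAM9 fell by 0.53 and TIMP3, an inhibitor of ADAM17, fell by 0.47.

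Among 22 adaptor and core signalling genes of the RAS-ERK and PI3K routes, 6 were higher, 5 were lower and 11 did not pass, which is near the 26.2% and 25.4% of all genes tested and so no result about these genes, with all log2 fold changes between -0.28 and 0.24. The largest were PLCG1 at -0.28, PIK3R1 at -0.27, MAP2K1 at 0.24 and HRAS at 0.20, and the row of HRAS has the same values as another row of the table, so its reads are uncertain. Among 22 genes of receptor ubiquitination, endocytosis and inhibition, 7 were higher and 5 were lower (3 with DESeq2), beside the same 26.2% and 25.4% of all genes, with a median of 0.04. LRIG1, a membrane inhibitor of ERBB receptors whose row also shares its values with another row, had a log2 fold change of 0.74 ± 0.12 (SE), at an adjusted p of 3.51e-04 by edgeR. CBLB, a ubiquitin ligase, rose by 0.65 and RNF41, a ubiquitin ligase that acts on ERBB3, by 0.50, while the receptor phosphatase PTPRJ fell by 0.74.

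Transcripts that are commonly read as signs of ERK activity changed in both directions. Of 18 such genes, 17 were tested, 10 were higher and 5 were lower, beside 26.2% and 25.4% of all genes tested, and their median log2 fold change was 0.57 against 0.00097 over all genes. FOSL1, an AP-1 subunit, was at 12.4 normalized CPM untreated and 52.8 with Y-320, which made a log2 fold change of 2.09 ± 0.049 (SE), at an adjusted p of 7.65e-10 by edgeR. The ERK phosphatases DUSP5 and DUSP6 rose by 1.91 and 1.63 on the same scale. The ephrin receptor EPHA4 fell by 1.10. The summed level of the 18 genes was 1132 to 1219 CPM untreated and 977 to 1033 CPM with Y-320. The most abundant of them, CCND1, went from 501 to 260 normalized CPM and weighs most in this sum. These values are RNA levels, and ERK activity itself was not measured.

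Of 21 other receptor tyrosine kinases, 19 were tested, 4 were higher and 9 lower, beside 26.2% and 25.4% of all genes tested, with a median log2 fold change of -0.20. The number higher was 2 without Y-320 replicate 3. PDGFRB fell by 1.82, FGFR2 by 1.56, FGFR3 by 1.33 and ROR1 by 0.74 on the log2 scale, each with groups that did not overlap. Whether the change of EGFR or ERBB2 differed from that of these genes was not tested.

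**Figure D4:**
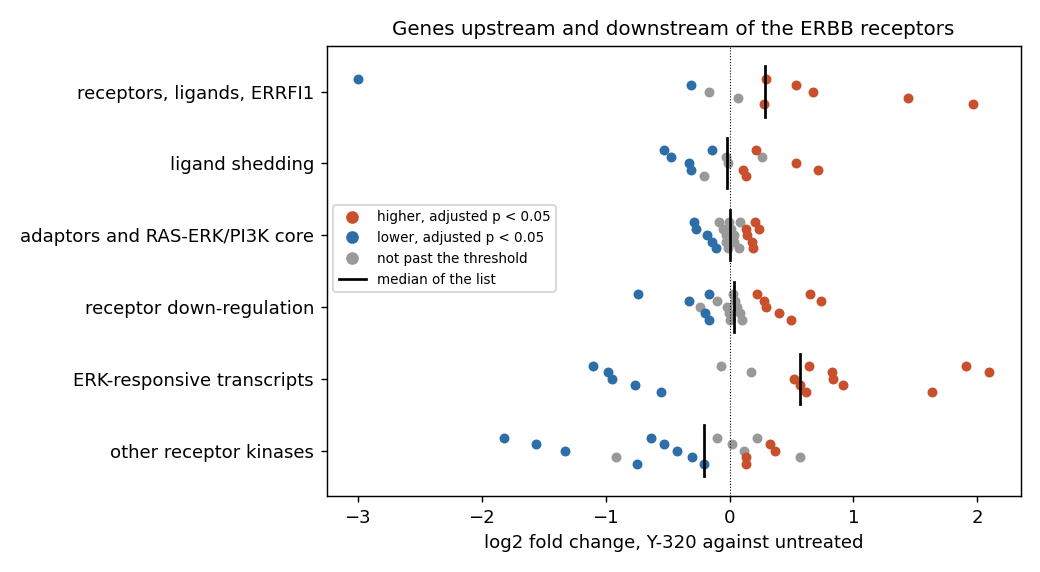
Log2 fold change of Y-320 against untreated cells for each tested gene of the lists (points, coloured by the edgeR call) with the median of the list as a black bar. The adaptor and core genes stay between -0.28 and 0.24, while the ERK-responsive transcripts range from -1.10 to 2.09 with a median of 0.57.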

How the data were processed

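RNA was extracted with an RNeasy kit, libraries were made on the Illumina Neoprep system and sequenced on an Illumina NextSeq. The authors deposited estimated counts per Ensembl gene, and the submitters' processing notes name kallisto 0.46.1 and hg38. kallisto divides reads that match several transcripts, so 63.3% of the deposited values above 0 lie more than 0.01 from a whole number. The Ensembl release is not given in the sources used here. The values are not normalized.

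The counts were rounded, filtered with filterByExpr (minimum 10 counts, 15 in total), scaled by TMM and fitted for all genes with the quasi-likelihood test of edgeR 4.0.16 in R 4.3.3, without a block, and p-values were adjusted over all 16580 genes (Benjamini-Hochberg, threshold 0.05). Standard errors are the log2 fold change over the square root of the F statistic, and 95% intervals use its degrees of freedom. Alternatives were DESeq2 1.42.0, limma 3.58.1 (voom), other scalings and filters, unrounded counts, a replicate block and each library left out in turn. Positions and lengths are from GENCODE 44. Before use, the fitting code was run on simulated data. Permutation tests used scipy 1.17.1.

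The members, the gene lists and the motifs were chosen with earlier results of these data known. The text names all 10 genes, the 6 other family genes, and of each further list at most 4 genes, those with the largest change past the threshold at a mean of at least 1 CPM. MIEN1, FBXO22, EGFR-AS1, ENSG00000284747, CD3E and CCND1 were named outside this rule, after their values were seen.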

Additional observations from a re-analysis of the deposited data

How the results depend on the processing

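Over 15 alternative fits, 143 of 150 values of the 10 genes kept their direction and their side of the threshold, and none changed direction. EREG accounted for 6 of the others: it lost its call with DESeq2 (log2 fold change 0.28), with upper-quartile scaling (0.25) and in 4 of the 6 leave-one-out fits, which ranged from 0.20 to 0.44. ERBB3 passed the threshold only without untreated replicate 2 (0.12). The number of the 10 genes called higher was 5 with DESeq2 and with upper-quartile scaling and 5 to 6 with a library left out, and the number called lower was 2 in every fit. Over all genes, leaving out a library gave 3917 to 4047 higher and 3748 to 3925 lower, DESeq2 gave 3405 and 3278, and upper-quartile scaling gave 3917 and 4746. With the replicate block, 6 of the 10 genes were higher and 2 lower, and 4285 genes in all were higher and 4159 lower. The block changed no call among the 10 genes, but the libraries share only a number: deviations of libraries with the same number correlated at -0.013, 0.011 and -0.00023, and not every library correlated best with its own number.

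Among the pathway counts, DESeq2 gave 3 lower genes of receptor down-regulation in place of 5. With a library left out, 1 to 2 of the other family genes were lower, the lowest without untreated replicate 2, and 2 to 4 other receptor kinases were higher, the lowest without Y-320 replicate 3. NRG2 turned from 0.25 to -0.21 without Y-320 replicate 1, within a leave-one-out range of -0.21 to 0.58. EPGN lost its call without untreated replicate 2 and HRAS with DESeq2. Per length, 8 of the 10 genes kept their place in the untreated order with the exon union and with the longest transcript. None of the 10 genes had a copy to sum, so that alternative gave no value for them. The rows that share their values with HRAS and LRIG1 were not summed with them. Depth limits ERBB4, EGF, NRG2 and NRG3, where a few counts decide the value.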
